A study of Mus musculus with 6 samples.

Results

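Rosette-stage cells are mouse embryonic stem cells held in a state between the naive epiblast and the primed epiblast that forms a lumen. Here they are the wells of 2 libraries, labelled rosette_LIM, 1 from the cell line R1 and 1 from the cell line IB10. A well was taken as a member where it held at least 6000 counts of genes, with the ERCC spike-in RNAs left out. This gave 329 of 376 rosette_LIM wells, 179 in R1 and 150 in IB10, out of 947 such wells among 1128 in all 6 libraries. The rule used total counts only, so the levels, spread and pairs of genes below were not used to choose the wells.

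Both lines were grown in N2B27 medium on gelatin and serum coated plastic in 3 conditions. The rosette_LIM cells had LIF, 0.1 µM PD325901 (an inhibitor of MEK) and 2 µM IWP2 (an inhibitor of WNT secretion), for 6 passages in R1 and 5 in IB10, at passage 28 and 33. The LIF_2i cells, the naive state, had LIF, 3 µM CHIR99021 (an inhibitor of GSK3) and 0.1 µM PD325901, at passage 24 in R1 and 28 in IB10. The primed_4d cells were kept for 4 days, at passage 24 and 28, with LIF, 2 µM IWP2, Activin A at 20 ng/ml and FGF2 at 12 ng/ml. LIF was thus present in all 3 conditions, IWP2 was shared by rosette_LIM and primed_4d, and PD325901 was shared by rosette_LIM and LIF_2i. The rosette cells were also at a higher passage than the other conditions of the same line, which cannot be told apart from the medium. Single cells were sorted into 384-well plates and sequenced by SORT-seq, which counts the 3' ends of transcripts with unique molecular identifiers (UMIs). Each condition has 1 library per line, and no label says that cultures were repeated, so p-values between conditions measure the spread between these libraries only.

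In the embryo the naive epiblast carries factors such as Zfp42 (Rex1), Esrrb, Klf4 and Tfcp2l1, and the rosette stage adds Otx2 while polarity is set up. LIF signals through STAT3, MEK inhibition lowers ERK signalling, and IWP2 stops the cells from secreting their own WNT. Lefty1 and Lefty2 are secreted inhibitors of Nodal, and are themselves induced by Nodal signalling. Tubb3 is a tubulin best known from neurons.

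The 179 R1 wells held a median of 32088 counts and 5984 detected genes, and the 150 IB10 wells 31726 counts and 6009 genes. The lowest members held 6561 counts in R1 and 6882 in IB10, and the highest wells left out held 4956 and 5038. Member wells held 99.7% of the R1 rosette counts and 99.2% of the IB10 rosette counts. ERCC spike-ins made up 1.86% and 2.00% of counts. The same 188 well numbers occur in all 6 libraries, and 0 pairs of wells held identical values. No doublet caller was run. Genes of other cell types were at low counts in the rosette wells: 5 primitive endoderm markers summed to 41 counts in R1 and 23 in IB10, 5 trophectoderm markers to 35 and 35, and 5 mesendoderm markers to 80 and 72. Sox7 (R1 only), Elf5 and Mesp1 were at 0. Neuroectoderm markers summed to 211 and 196 counts, or 36.3 and 38.2 CPM (counts of a gene per 1000000 counts of all genes). Feeder fibroblast markers summed to 51 and 17, with Col1a2, Col3a1 and Postn at 0.

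The 2 lines gave nearly the same profile. The correlation of log2(CPM + 1) over 16410 genes between them was 0.991, a correlation across genes within 1 condition, in which genes are not independent replicates. The 20 most abundant genes held 16.1% of the R1 counts and 16.5% of the IB10 counts, and 18 genes were in both lists of 20. Mitochondrially encoded rows took 9.37% and 11.01% of counts, and ribosomal protein rows 15.3% and 14.5%. Rn45s, the row of the ribosomal RNA precursor, was the most abundant, at 30319 CPM in R1 and 21651 CPM in IB10. Among rows of nuclear genes, ribosomal protein Rpl4 stood at 7005 and 5557 CPM and the chaperone Hsp90aa1 at 4874 and 4627 CPM. Translation factor Eef1a1 stood at 4344 and 3973 CPM. Npm1, a nucleolar protein, was at 4146 and 3973 CPM. Dppa5a, an RNA-binding protein of pluripotent cells, was rank 24 in both lines, at 3372 and 3047 CPM. Zfp42 was rank 109 in R1 and 116 in IB10, and Pou5f1 (Oct4), the core pluripotency factor, ranks 203 and 283. These values are counts of 3' ends, which are compared here within a gene and not between genes by transcript length.

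The marker genes gave the rosette cells a mixed pattern: Zfp42 and Esrrb far above their primed_4d level, Otx2 above its LIF_2i level and Lefty1 between the other conditions. Zfp42 (chr8:43295063-43306980) was at 1356 CPM in R1 and 1186 CPM in IB10, against 1189 and 1062 CPM in LIF_2i and 121 and 191 CPM in primed_4d. Its wells had medians of 1319 and 1126 CPM, 10th percentiles of 738 and 659 CPM and 90th percentiles of 1892 and 1801 CPM. Esrrb (chr12:86361117-86521628) was at 335 and 392 CPM, against 421 and 491 CPM in LIF_2i and 36.5 and 59.8 CPM in primed_4d. For Zfp42 and Esrrb, the libraries of rosette_LIM and LIF_2i lie far above those of primed_4d. By edgeR's quasi-likelihood test with Benjamini-Hochberg adjustment, over 6 libraries with the line as a term, Zfp42 was 3.05 ± 0.17 (SE) higher on the log2 scale than in primed_4d (adjusted p = 1.77e-09), and 0.21 ± 0.15 different from LIF_2i (adjusted p = 0.499). By the same edgeR test with adjustment, Esrrb was 2.95 ± 0.14 higher than in primed_4d (adjusted p = 3.67e-10) and its change from LIF_2i was -0.30 ± 0.12 (adjusted p = 0.181).

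Otx2 (chr14:48657677-48673819), the homeobox factor of the rosette, was low in count: 76 UMIs in R1, or 13.1 CPM (95% exact Poisson interval 10.3 to 16.4), and 78 UMIs in IB10, or 15.2 CPM (12.0 to 19.0), which covers counting error only. In LIF_2i it stood at 1.76 and 3.85 CPM, and in primed_4d at 14.0 and 18.5 CPM. Otx2 had a count in 30.2% of R1 rosette wells and 32.0% of IB10 wells, against 5.62% and 13.04% in LIF_2i. When every well was thinned to 6000 counts the rosette shares were 6.70% and 6.00%, near the level of 1 count, so the wells cannot be sorted by Otx2. By the edgeR test with adjustment Otx2 was 2.37 ± 0.30 higher on the log2 scale than in LIF_2i (adjusted p = 0.000146) and -0.17 ± 0.25 from primed_4d (adjusted p = 0.633). With wells thinned to 6000 counts the change from LIF_2i was 2.40 and did not pass (adjusted p = 0.0532 by edgeR). The primed genes Pou3f1 and Dnmt3b were far below their primed_4d level. Pou3f1, a POU factor, was at 7.73 and 8.39 CPM against 254 and 269 CPM in primed_4d and 5.28 and 3.08 CPM in LIF_2i. Its change from LIF_2i was 0.99 ± 0.26 on the log2 scale (edgeR, adjusted p = 0.0325), a call lost with no replicate block (adjusted p = 0.067), after thinning (0.76, adjusted p = 0.521), with DESeq2 (adjusted p = 0.0535), without the IB10 LIF_2i library (0.60, adjusted p = 0.49) and without the IB10 rosette library (0.91, adjusted p = 0.0544). Dnmt3b, a DNA methyltransferase, was at 32.1 and 55.8 CPM against 873 and 823 CPM in primed_4d and 77.5 and 89.8 CPM in LIF_2i. By edgeR it was lower than in LIF_2i (-0.92 ± 0.16, adjusted p = 0.00274), a call lost after thinning (-0.66, adjusted p = 0.109).

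Tubb3 (chr8:123411424-123422015) was at 178 CPM in R1 and 133 CPM in IB10 rosette wells. It stood at 69.5 and 65.2 CPM in LIF_2i and at 50.3 and 31.4 CPM in primed_4d, so each rosette library lay above all 4 others. The edgeR test with adjustment gave 1.22 ± 0.14 on the log2 scale over LIF_2i (adjusted p = 6.64e-05) and 1.96 ± 0.15 over primed_4d (adjusted p = 6.79e-08). Of 10 neuronal and axon genes tested, 5 rose and 2 fell against LIF_2i, where 409 of 12078 genes tested (3.39%) were higher and 296 (2.45%) lower. These totals were 175 and 120 with no replicate block, 152 and 127 without the R1 LIF_2i library, 205 and 141 without the IB10 LIF_2i library, and 737 and 564 or 731 and 562 without the R1 or the IB10 primed_4d library. Crmp1, a microtubule-binding protein of axons, rose by 2.19 ± 0.19 against LIF_2i, while Nefl and Nefm fell. Against primed_4d 4 of the 10 neuronal and axon genes were higher (Dpysl3, Nefl, Stmn2 and Tubb3) and 2 were lower (Crmp1 and Insm1). Of all genes tested, 19.3% were higher and 17.3% lower than in primed_4d.

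**Figure D1:**
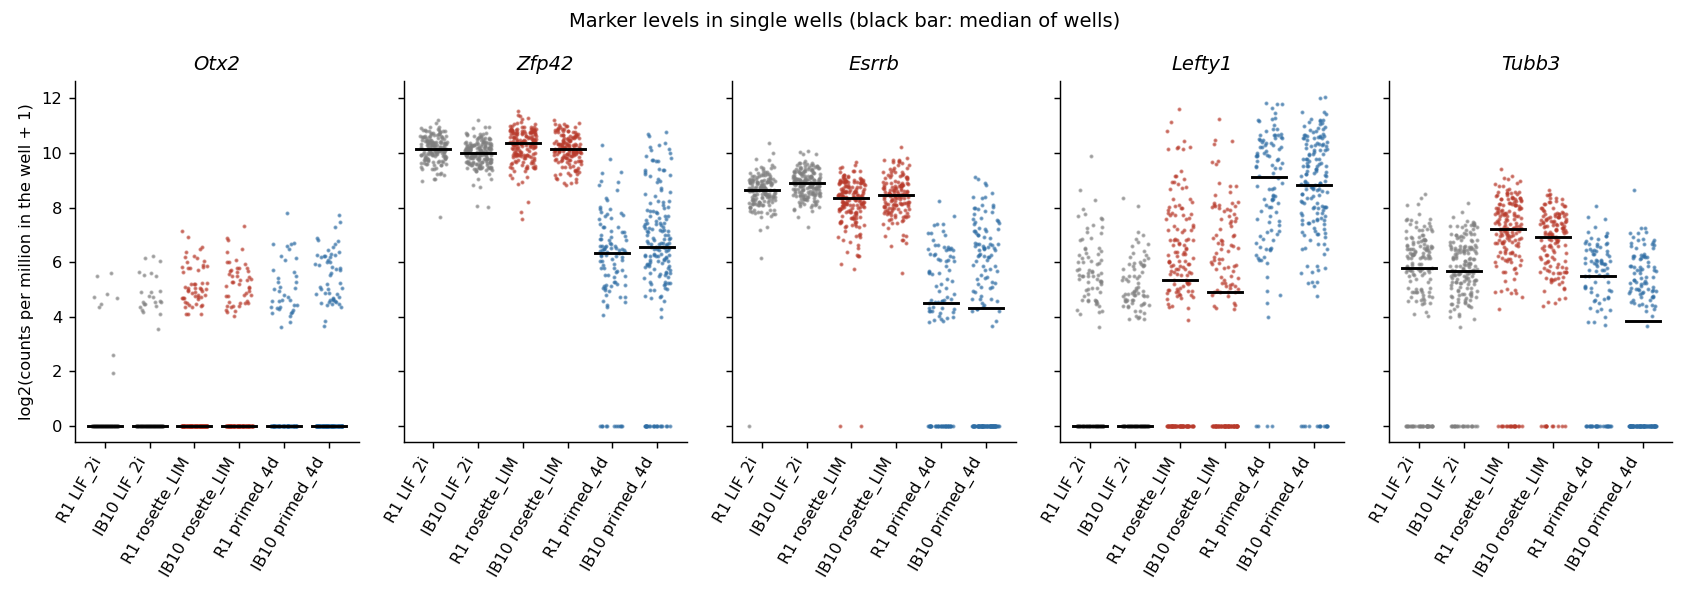
Level of the 5 markers in each well, as log2(CPM + 1), for the 6 libraries. Each point is 1 member well and each black bar the median of a library; Zfp42 and Esrrb sit high in the naive and rosette libraries, and Lefty1 spreads from 0 to 3165 CPM in R1 rosette wells.

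Groups of pathway genes, each taken from lists chosen with earlier results known, were compared with both conditions by the same edgeR fit. Against primed_4d 19.3% of genes tested were higher and 17.3% lower, which is the background for the primed_4d counts below. Of 23 naive genes, 2 rose (Fbxo15 and Fgf4, a growth factor of the epiblast) and 3 fell (Manba, Tdh and Tfcp2l1) against LIF_2i, while 18 were higher and 2 lower than in primed_4d. Against LIF_2i, 8 of the 25 genes of the formative and primed list were higher and 2 lower, and 2 were higher and 15 lower than in primed_4d, and Crabp2, a retinoic acid carrier, was 3.05 ± 0.27 higher than in LIF_2i on the log2 scale. Of 19 genes of cholesterol synthesis 15 rose against LIF_2i, among them Sqle, the squalene epoxidase, and 0 fell. From primed_4d this list differed little: 3 genes were higher, 2 were lower and 14 did not pass. Of 14 WNT targets 6 fell against LIF_2i (Axin2, Bmp4, Cdx1, Sp5, T and Tnfrsf19), 1 rose, and 7 did not pass. In the comparison with primed_4d 4 WNT targets were higher, 4 were lower and 6 did not pass. Of 12 ERK feedback genes 4 fell (Etv4, Spred1, Spry2 and Spry4) against LIF_2i, 0 rose and 8 did not pass. Compared with primed_4d, 8 of the 12 were lower, 1 (Etv5) was higher and 3 did not pass. The medians of all genes tested were 0.00 and 0.01 on the log2 scale in the 2 comparisons.

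Wells of the same library differ in part because few molecules are counted. For each gene with a mean of at least 1 count per well, the squared coefficient of variation (CV²) of depth-scaled counts was reduced by the part that counting alone gives, and the remainder is called the excess. A gene is called variable where the excess is at least 0.1 and at least 3 times the running median of genes of similar level. The median gene had an excess of 0.0976 in R1 and 0.101 in IB10, a CV of 0.312 and 0.318. ERCC spike-in RNAs, added to every well and scaled to their own total, had a median excess of 0.00603 and 0.00380 over 21 rows in each line. Single spike-ins ranged from -0.0383 to 0.176 in R1 and from -0.118 to 0.0936 in IB10. The 8 with a mean of at least 10 counts reached at most 0.00960 and 0.0229. In R1, 465 of 4861 genes (9.57%) were called variable, and in IB10 441 of 5054 (8.73%). In both lines 169 of 4675 genes (3.61%) were called, which is 36.3% of the R1 list and 38.3% of the IB10 list; with wells thinned to 6000 counts 327 were called, 97 of them shared. The excess of genes correlated between lines at 0.344 on the log2 scale, a description across genes.

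**Figure D2:**
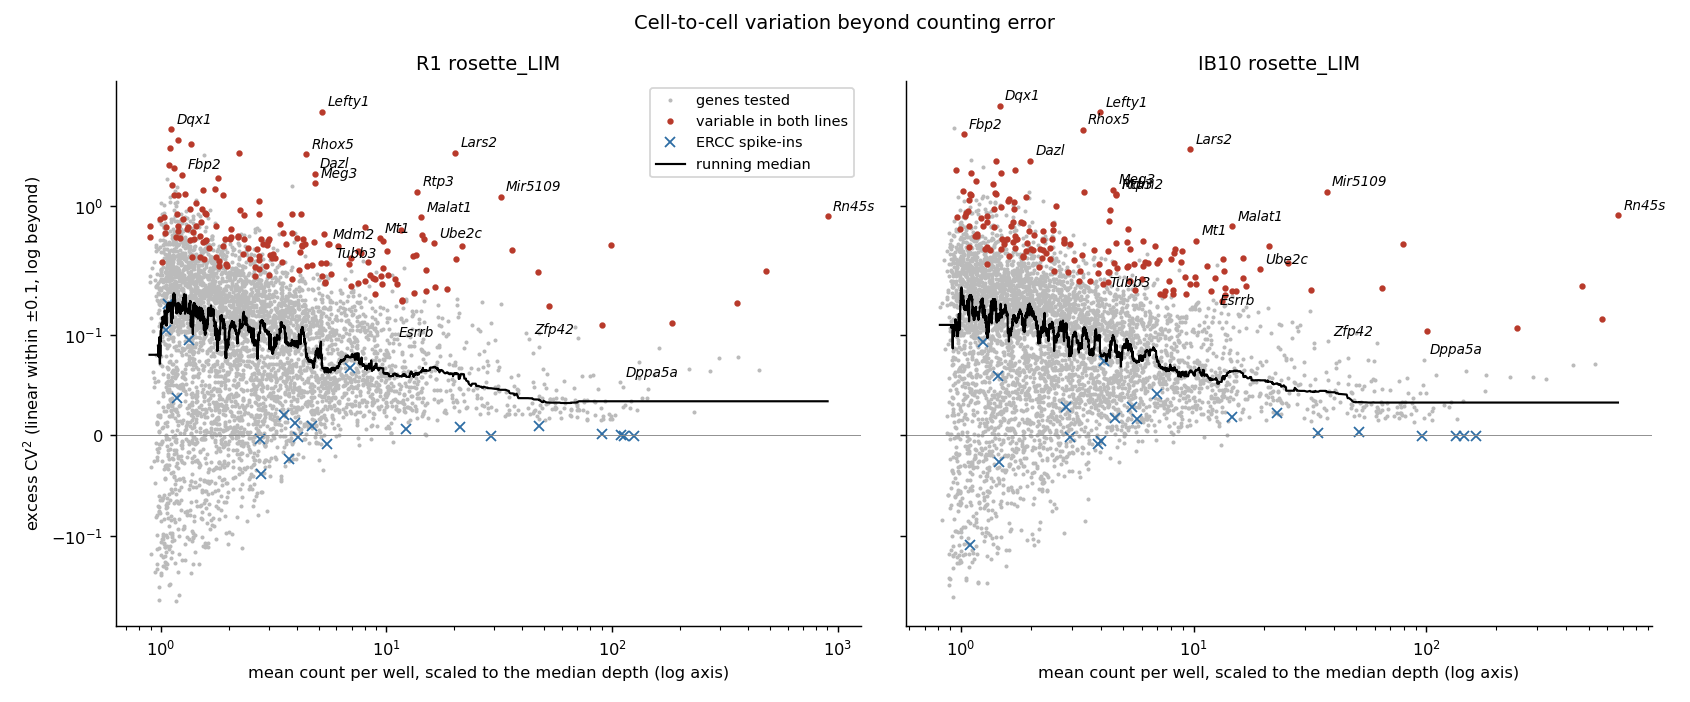
Excess CV² of each gene against its mean count per well in the 2 rosette libraries. Grey points are genes tested, red points the 169 variable in both lines, blue crosses ERCC spike-ins and the black line the running median. The spike-ins lie between -0.0383 and 0.176 in R1 and between -0.118 and 0.0936 in IB10, while Lefty1 is at 5.42 and 5.39.

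Lefty1 (chr1:180935022-180938400) had the highest excess among the 169 genes when each gene is ranked by the lower of its lines, with an excess of 5.42 in R1 and 5.39 in IB10. It was at 171 CPM in R1 and 113 CPM in IB10 rosette wells, where 34.6% and 44.0% of wells had no count. The top 10% of wells held 65.7% and 63.2% of the scaled counts. In R1 the median well stood at 39.1 CPM, the 90th percentile was 408 CPM and the highest well reached 3165 CPM. In IB10 these were 28.7, 275 and 2422 CPM. Lefty1 stood at 36.0 and 18.2 CPM in LIF_2i and at 845 and 750 CPM in primed_4d, and by the edgeR test with adjustment it was 2.45 ± 0.16 higher than in LIF_2i (adjusted p = 6.67e-07) and 2.51 lower than in primed_4d on the log2 scale (-2.51 ± 0.15; adjusted p = 3.47e-09). Its neighbour Lefty2 (chr1:180893108-180899103), which lies 35918 bases away, had an excess of 1.36 and 1.92 at 55.5 and 51.3 CPM. Lefty2 was 2.08 lower in rosette than in primed_4d cells (-2.08 ± 0.16 by edgeR, adjusted p = 7.84e-08) and 0.09 ± 0.17 different from LIF_2i (adjusted p = 0.828). The 2 Lefty genes are paralogs, and how reads matching both were counted was not stated. Nodal, the ligand they inhibit, was less variable, with an excess of 0.41 in each line.

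Other genes high in excess had few counts in most wells and many in a few. Dqx1 (chr6:83057844-83067318), a helicase-related gene, had an excess of 3.95 in R1 and 6.03 in IB10, and 63.1% and 57.3% of wells had no count of it. Rhox5 (chrX:37804842-37808876), a homeobox gene of the X chromosome, had 2.55 and 3.92. Its top 10% of wells held 52.2% and 65.2% of counts. Dazl (chr17:50279395-50293636), an RNA-binding protein of germ cells, had 1.79 and 2.27, at 139 CPM in R1 and 61.7 CPM in IB10. Against LIF_2i its change was -0.14 on the log2 scale (adjusted p = 0.856 by edgeR), but 0.72 without the IB10 and -1.20 without the R1 rosette library, so the lines went opposite ways. Stra8, which marks entry into meiosis, had 2.60 and 0.70. Meg3 (chr12:109541001-109571726), an imprinted long RNA, had 1.51 and 1.35. Fbp2 (chr13:62836877-62858422), an enzyme of gluconeogenesis, had 1.77 and 3.63, and by the edgeR test with adjustment it was 1.97 ± 0.20 higher than in LIF_2i on the log2 scale (adjusted p = 1.81e-05). Lars2 (chr9:123366927-123462666), a mitochondrial leucyl-tRNA synthetase, had 2.62 and 2.78 and reached 5313 and 3407 CPM in single wells.

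Signalling readouts and transcription factors also varied between wells. Id3, a target of BMP signalling, had an excess of 1.23 in R1 and 0.92 in IB10, and was lower than in LIF_2i by edgeR with adjustment (-1.11 on the log2 scale, adjusted p = 0.00273). Foxd3, a forkhead factor of pluripotent cells, had 1.34 and 0.96, and Klf6, an early response gene, 1.66 and 1.26. Utf1, a chromatin factor of pluripotent cells, had 0.37 and 0.28. Some genes were far more variable in 1 line: Lgals1, a galectin, had 3.28 in R1 and 0.41 in IB10, and Bnip3, a mitophagy receptor induced by low oxygen, 3.04 and 0.73. Vegfc, a growth factor of lymphatic vessels, had 0.56 in R1 and 2.24 in IB10. That difference between the lines was not tested. Lefty1 had an excess of 1.02 and 1.06 in primed_4d cells, and of 4.89 and 2.69 in LIF_2i cells. Meg3 had 0.52 and 0.64 in LIF_2i and 0.49 and 0.82 in primed_4d, both below the rosette values. Klf4 had 0.33 and 0.37 in LIF_2i and 3.64 and 2.34 in primed_4d.

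Lists are given here by their count of genes called in both lines, beside 3.61% of all 4675 genes. Of 27 ribosomal protein genes tested in both lines, 0 were called variable, with a median excess of 0.0253 in R1 and 0.0284 in IB10, and of 17 cholesterol genes 0 were; in lists of this size 0 is near the share of all genes. Of 18 naive genes 5 were called: Nr0b1 (0.87 and 0.34), Klf4 (0.40 and 0.36), Klf5 (0.33 and 0.37), Fgf4 (0.24 and 0.28) and Tdh (0.21 and 0.20). Zfp42 was not called, at 0.0962 and 0.0940. In primed_4d cells Zfp42 had an excess of 1.73 in R1 and 2.01 in IB10. Of 10 formative genes 5 were called, among them Dnmt3a and Zic2, and of 29 G2 and M phase genes 6 were, among them Cenpf, Ube2c and Nusap1. Of 10 p53 targets 4 were called: Mdm2, the ubiquitin ligase that p53 induces, Cdkn1a, Trp53inp1 and Ccng1. Residual spread was also tested across libraries, by limma on wells thinned to 6000 counts with Benjamini-Hochberg adjustment. The test took 693 genes with a mean of at least 1 thinned count per well in all 6 libraries. Genes low in any library, such as Lefty1 in LIF_2i, could not enter, so the test does not cover them. It called 0 genes (0%) against either condition. An unadjusted limma p under 0.05 was reached by 21 genes against LIF_2i and 48 against primed_4d.

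Pairs of genes that vary together were scored by the Pearson correlation over wells of log2 scaled counts, after removing the part that follows log2 total counts. Wells of a line share the library and differ in depth, so r is a description with no p, over 179 wells in R1 and 150 in IB10. Of 10925475 pairs, 1007 (0.00922%) reached 0.3 in both lines, and 111 (0.00102%) reached -0.3. The 1007 pairs involve 341 genes, and with wells thinned to 6000 counts 84 passed, 82 of them shared. They are 18.2% of the 5531 pairs at 0.3 in R1 alone and 8.34% of the 12079 in IB10 alone. Of them, 380 (37.7%) join 2 ribosomal protein rows and 70 (6.95%) join 2 mitochondrial rows. Another 66 (6.55%) join a ribosomal protein row to another row, and 14 (1.39%) a mitochondrial row to another row. Of the remaining pairs, 189 (18.8% of all that passed) hold a G2 or M phase gene and 288 (28.6%) do not.

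Cell cycle genes made up many of the pairs that passed. Of 406 pairs within the G2 and M phase list 86 (21.2%) passed. Ube2c, the ubiquitin-conjugating enzyme of mitotic exit, had 34 partners, as did Rplp1. Cdk1, the mitotic kinase, correlated with Ube2c at 0.60 in R1 and 0.58 in IB10, and Plk1, a mitotic kinase, at 0.58 and 0.65. Of 210 S phase pairs 17 (8.10%) passed, with Pcna, the replication clamp, and Rrm2, which makes deoxynucleotides, at 0.48 and 0.48. The summed S and G2/M lists correlated at -0.26 and -0.12. Tuba1b and Tubb5, tubulins, reached 0.66 and 0.55.

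**Figure D3:**
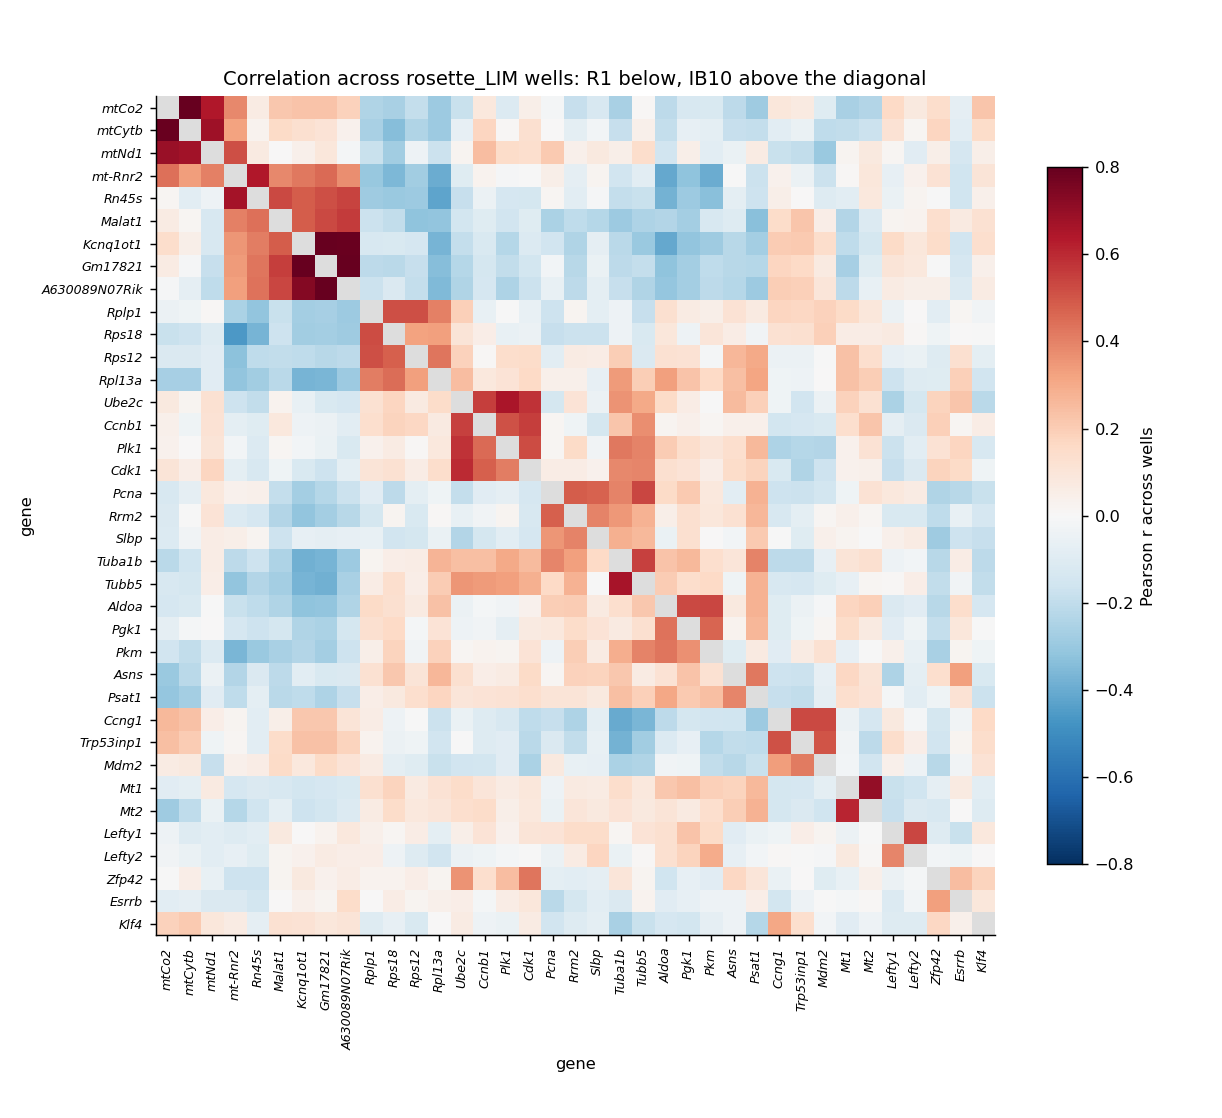
Correlation of 37 genes across wells, R1 below and IB10 above the diagonal, as Pearson r after removal of depth. Mitochondrial, ribosomal, mitotic, p53-target and metallothionein genes form red blocks in both triangles.

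The promoters of genes from the metallothionein, G2 and M phase and ATF4 pairs are shown because they carry letters by which each family is known. The sequences are from RefSeq (GRCm38.p6), the 250 bases before the RefSeq start of the gene, 5′ to 3′ on the gene's strand, with matches in capitals on either strand. Mt1 and Mt2 carry the core of the metal response element (TGCACNC or TGCGCNC, found in 21.4% of 32851 promoters). Ube2c and Cdk1 carry the cell cycle CHR (TTTGAA or TTCGAA, 17.1%) and CCAAT (33.8%). Asns and Aars carry the amino acid response core (TGATGNAA, 3.45%).
Mt1: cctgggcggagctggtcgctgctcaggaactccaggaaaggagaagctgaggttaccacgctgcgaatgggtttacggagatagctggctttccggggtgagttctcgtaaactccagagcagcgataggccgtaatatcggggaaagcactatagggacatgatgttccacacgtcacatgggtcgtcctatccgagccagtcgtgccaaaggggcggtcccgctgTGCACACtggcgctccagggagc
Mt2: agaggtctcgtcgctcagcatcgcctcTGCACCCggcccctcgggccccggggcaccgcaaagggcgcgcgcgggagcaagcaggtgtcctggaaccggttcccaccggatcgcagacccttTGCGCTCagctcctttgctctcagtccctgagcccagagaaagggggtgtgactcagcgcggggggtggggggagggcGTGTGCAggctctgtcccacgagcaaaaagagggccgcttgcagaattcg
Ube2c: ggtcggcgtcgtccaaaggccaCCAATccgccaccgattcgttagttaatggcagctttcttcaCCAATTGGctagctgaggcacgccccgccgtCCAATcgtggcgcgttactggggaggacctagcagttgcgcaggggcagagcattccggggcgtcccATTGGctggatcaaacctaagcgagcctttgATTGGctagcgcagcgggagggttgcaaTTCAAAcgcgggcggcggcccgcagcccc
Cdk1: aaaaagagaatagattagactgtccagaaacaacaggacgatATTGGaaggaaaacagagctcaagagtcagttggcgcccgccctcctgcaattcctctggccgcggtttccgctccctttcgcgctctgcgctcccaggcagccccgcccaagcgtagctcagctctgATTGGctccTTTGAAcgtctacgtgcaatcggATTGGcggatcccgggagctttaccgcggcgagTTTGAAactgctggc
Asns: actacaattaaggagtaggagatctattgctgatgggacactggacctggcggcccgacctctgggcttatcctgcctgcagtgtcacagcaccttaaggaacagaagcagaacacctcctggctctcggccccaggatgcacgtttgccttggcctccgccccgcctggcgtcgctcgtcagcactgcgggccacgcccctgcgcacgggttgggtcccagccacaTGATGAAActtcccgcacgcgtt
Aars: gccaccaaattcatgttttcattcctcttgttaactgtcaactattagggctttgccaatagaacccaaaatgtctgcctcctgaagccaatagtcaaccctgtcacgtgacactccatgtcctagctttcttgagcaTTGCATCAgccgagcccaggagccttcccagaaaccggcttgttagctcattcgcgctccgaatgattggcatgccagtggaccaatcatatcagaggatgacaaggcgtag
Gene positions given elsewhere are those of GENCODE M21, whose starts can differ from RefSeq's, as for Mt1 and Mt2. The windows are chr8:94178839-94179088 (+ strand), chr8:94172368-94172617 (+), chr2:164769679-164769928 (+), chr10:69352913-69353162 (-), chr6:7693210-7693459 (-) and chr8:111033592-111033841 (+). Mt1 has 1 match of the metal core, at -23 from the RefSeq start, and Mt2 has 3. Ube2c has 1 CHR and 6 CCAAT matches, Cdk1 has 2 and 3. Of the G2 and M phase genes 26 had a promoter to search, of which 22 held CCAAT and 10 held CHR. Of all genes with a promoter, 37.5% held CCAAT and 19.6% CHR. Of 18 genes of the ATF4 list 6 held the amino acid core, as did 3.91% of all genes. The metal core was in 4 of 10 genes of the metallothionein and oxidative stress list, against 23.8% of all genes. The hypoxia response core (ACGTGC or GCGTGC) was in 8 of 16 glycolysis genes, against 15.3%, and the FOXH1 letters (TGTNNATT) in 1 of 10 Nodal and Lefty genes, against 12.5%. All motifs were searched on both strands. A match is a description of letters, not a site of binding.

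The metallothionein genes Mt1 (chr8:94179082-94180327) and Mt2 (chr8:94172664-94173568), which buffer zinc and copper, lie 5513 bases apart. In R1 the 179 rosette wells had a median of 227 CPM of Mt1 and 336 CPM of Mt2, in IB10 of 249 and 550 CPM. Their r was 0.61 in R1 and 0.70 in IB10, against 0.71 and 0.75 in LIF_2i and 0.53 and 0.47 in primed_4d. These 2 genes are paralogs too, with the same limit on the counting. Lefty1 and Lefty2 correlated at 0.39 and 0.54, with LIF_2i at 0.32 and 0.33 and primed_4d at 0.31 and 0.38. Lefty1 with Nodal stood at 0.23 and 0.18, under the limit.

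Stress programmes gave small sets of pairs. Of 45 p53 target pairs 5 passed. Ccng1 (chr11:40748552-40755311), a cyclin induced by p53, and Trp53inp1 (chr4:11156431-11174379), a p53-induced nuclear protein, reached 0.51 and 0.53. Mdm2 (chr10:117688875-117710758) with Trp53inp1 stood at 0.42 and 0.50. Of 120 pairs of ATF4 and amino acid stress genes 8 (6.67%) passed: Asns, asparagine synthetase, with Psat1, a serine synthesis enzyme, had 0.39 and 0.42, and Aars with Gars, the alanyl- and glycyl-tRNA synthetases, had 0.36 and 0.36. Of 91 glycolysis pairs 21 (23.1%) passed, with Aldoa and Pgk1 at 0.44 and 0.53. That pair stood at 0.54 and 0.50 in LIF_2i and at 0.13 and 0.22 in primed_4d. Calr and Hsp90b1, chaperones of the endoplasmic reticulum, had 0.44 and 0.47.

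**Figure D4:**
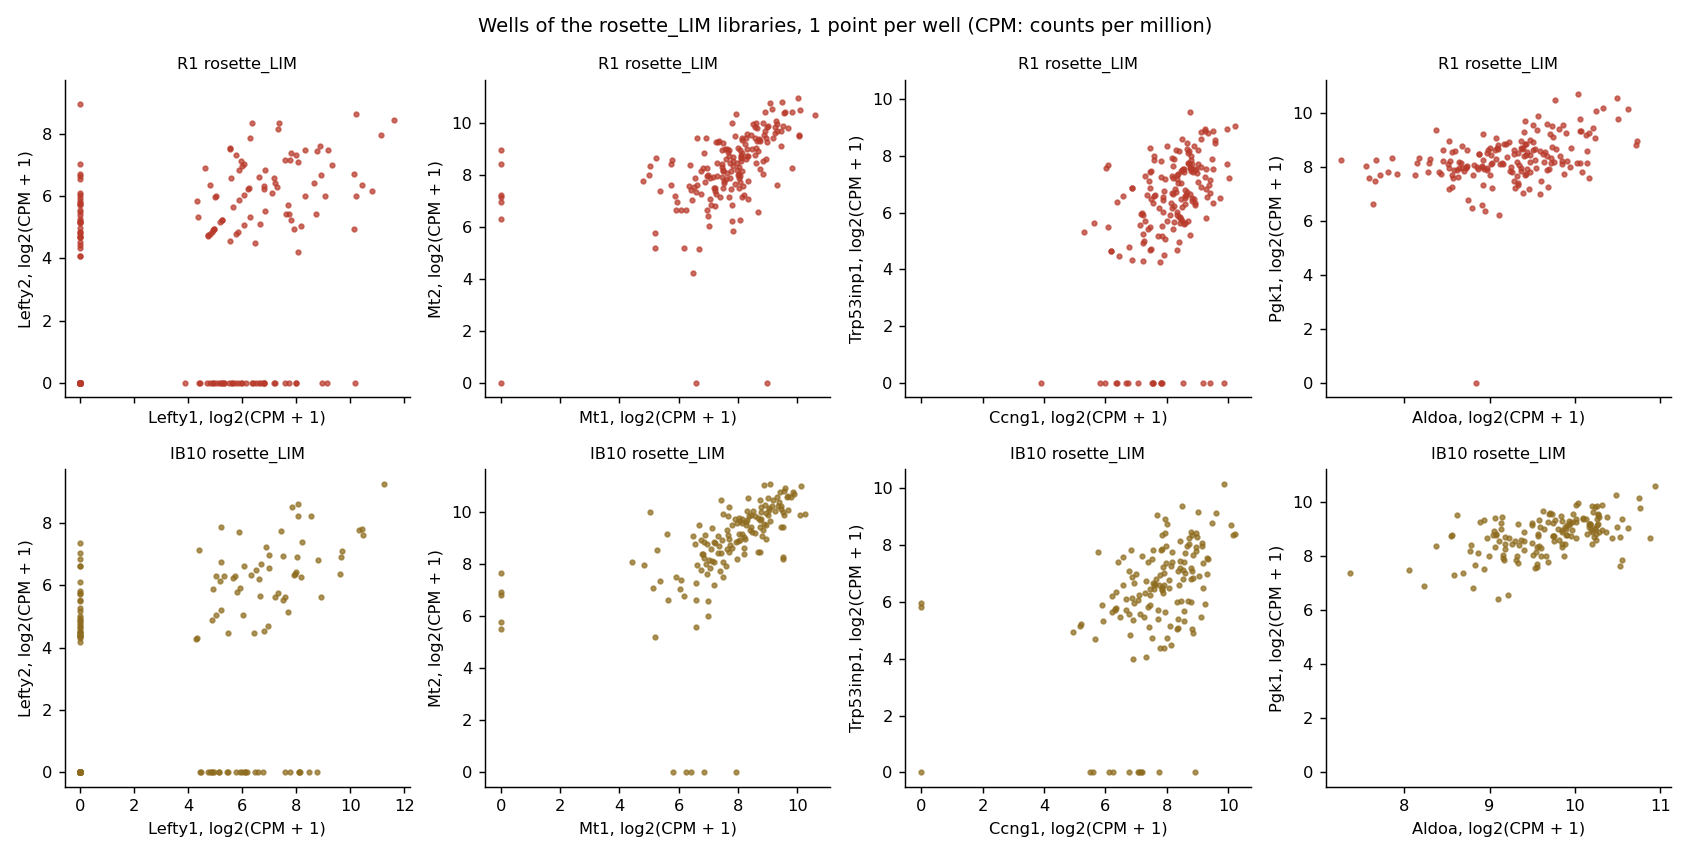
Single wells of the 2 rosette libraries for 4 gene pairs, as log2(CPM + 1). In the Lefty panels many wells lie on an axis at 0, while Mt1 and Mt2 rise together over the wells with counts of both.

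Of 153 pairs of 18 naive genes 0 passed, and 0 of 45 formative pairs and 0 of 66 core pairs did, which is near the 0.00922% of all pairs. Zfp42 with Esrrb stood at 0.33 in R1 and 0.25 in IB10, under the limit in IB10. The same pair had 0.07 and 0.05 in LIF_2i and 0.34 and 0.55 in primed_4d. Ranked by the lower r of the 2 lines, the genes most like Zfp42 were Kpna2 at 0.30 and 0.42 and Tdgf1, a co-receptor of Nodal, at 0.29 and 0.39. The gene most like Lefty1 was Lefty2, as given above. By the same rank Tubb3 was most like Tuba1a, at 0.32 and 0.27. Otx2 was under the level needed for a correlation.

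Pairs also followed the abundant RNA classes. The mitochondrial rows gave 70 of 91 pairs (76.9%), led by mtAtp6 and mtCo2 at 0.90 and 0.88, and ribosomal proteins gave 76 of 351 (21.7%). The summed ribosomal and mitochondrial lists correlated at -0.33 and -0.48. A set of rows that includes Kcnq1ot1, an imprinted antisense RNA, and Gm17821 and A630089N07Rik, and Malat1, a nuclear long RNA, rose together: Gm17821 and Kcnq1ot1 reached 0.85 and 0.83. Among the 111 opposite pairs, Lars2 with mtCo1 had -0.47 and -0.47, and mt-Rnr1 with the ribosomal protein gene Rps15 -0.46 and -0.48. Lars2 with mtCo1 also had -0.46 and -0.41 in LIF_2i and -0.45 and -0.33 in primed_4d. In the rosette wells Lars2 rose with Rn45s, at 0.41 and 0.51. Pou5f1 with Mir5109, a row named for a microRNA that correlated with Rn45s at 0.77 and 0.70, had -0.45 and -0.56. Rn45s took from 7143 to 65839 CPM between the 10th and the 90th percentile of R1 wells, so the share left for other genes differed; its part in these pairs was not tested.

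The wells fell into groups by chromosome, a pattern noticed after the values were seen. The share of counts from chromosome 8 (mitochondrial rows, Rn45s and Mir5109 left out) was below 5.5% in 29 R1 wells and above in 150 (83.8%), with medians of 4.80% and 6.48%, a ratio of 1.35. In IB10 117 wells were below and 33 (22.0%) above, with medians of 4.80% and 6.63%, a ratio of 1.38. The share of chromosome 6 was above 5.2% in 25 of 150 IB10 wells (median 5.90% against 4.28%), and all 25 of these were among the 33. In R1 1 well was above. Within 0.2 of the bounds lay 2 R1 wells for chromosome 8 and 0 in IB10. In the other conditions 73.1% of R1 LIF_2i and 88.5% of R1 primed_4d wells were above for chromosome 8, and 16.8% and 24.1% of IB10 wells. The number of copies of these chromosomes was not tested. Levels of some chromosome 8 genes moved with a second share, that of the rest of the chromosome. This share was of all gene counts of the well, mitochondrial rows, Rn45s and Mir5109 included, after removing the part that follows log2 total. The r with it was 0.40 and 0.26 for Zfp42, 0.22 and 0.18 for Tubb3 and 0.61 and 0.65 for Rpl13. For Mt1 the r was 0.01 and 0.09. Gene levels were scaled by the same total, and the effect of this on r was not tested. After the second share was removed the Mt1 and Mt2 r was 0.62 and 0.70. Outside mitochondrial pairs, 117 of 937 passing pairs (12.5%) lay on 1 chromosome, against 5.56% of all pairs. Of the 117, only 8 lay on chromosome 8. Chromosome 7 held 39, of which 28 joined 2 ribosomal protein rows.

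**Figure D5:**
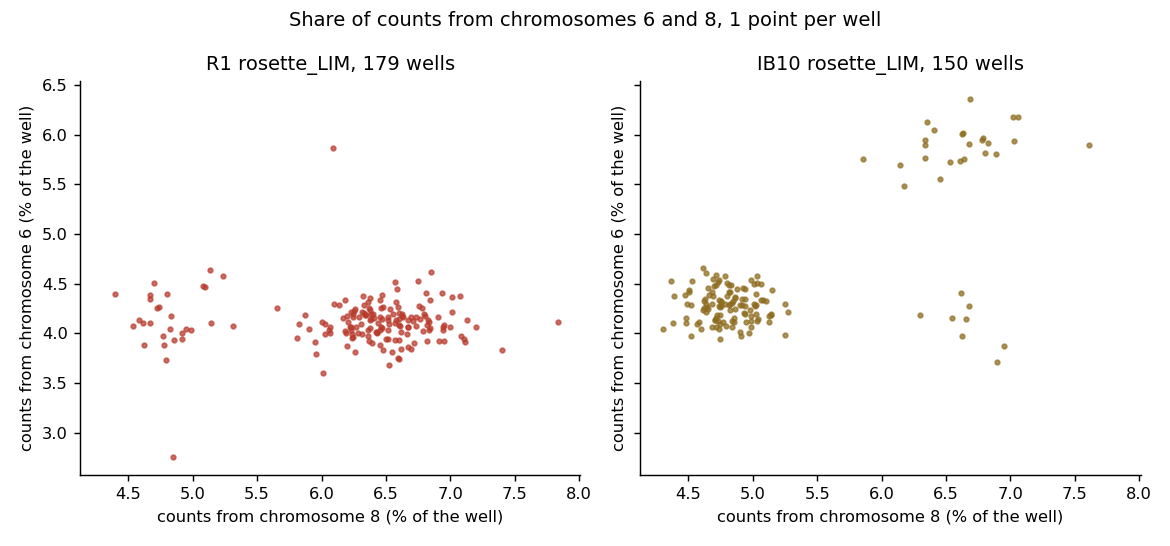
Share of a well's counts from chromosome 6 against chromosome 8, 1 point per well, in R1 (left) and IB10 (right). The 25 IB10 wells above 5.2% for chromosome 6 also lie above 5.5% for chromosome 8.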

How the data were processed

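The data are SORT-seq libraries of 2 cell lines in 3 conditions, 188 wells per library. Per the submitters' processing notes reads were mapped with BWA to mm10 (GRCm38), with the tool versions and gene models not given in the sources used here. Per gene row and well, the deposited values are expected counts: all 1297 distinct values match, to 2 decimals, the molecules expected from whole UMIs of 6 bases (4096 sequences), so they are estimated counts corrected for UMI collisions. The table holds 19623 rows, of which 91 are ERCC and 1470 gene rows are 0. Wells of a library are not replicates.

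The members, lists and tests were chosen with earlier results of these data known. Wells of at least 6000 counts were kept. For tests between conditions, counts were summed over member wells of each library, rounded, and tested in edgeR 4.0.16 (R 4.3.3; quasi-likelihood, TMM, filterByExpr with a minimum count of 10, two-sided, Benjamini-Hochberg threshold 0.05) with condition and line as terms. The line is a block because same-numbered libraries are 1 cell line. The deviations of the lines correlated at 0.15 between rosette_LIM and LIF_2i, at 0.08 between rosette_LIM and primed_4d and at 0.19 between LIF_2i and primed_4d over 11636 genes. With 2 against 2 an exact permutation test cannot go below 0.333, so none is given. Spread was tested by limma 3.58.1. The running median used 101 genes with a floor of 0.02, and the pseudocount was 1. Scripts were tested on simulated data. Named genes are the markers, the 20 most abundant, the 20 most variable, the top pairs and list members. Counts of wells, a stricter well minimum (10000), thinning, DESeq2 1.42.0, other filters and each library left out were tried. Not analysed here are protein sequences, and a few genes are not reported here. Intervals cover counting error only.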

Additional observations from a re-analysis of the deposited data

Results flagged for a closer look

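Of 32 changes of named genes between rosette_LIM and another condition, 5 went up in 1 line and down in the other. Each line has 1 library per condition, so the difference between the lines was not tested. Dazl against LIF_2i changed by 0.62 in R1 and by -1.15 in IB10 on the log2 scale of CPM, a gap of 1.77 between the lines. Rhox5 against LIF_2i changed by 0.54 and -0.14, a gap of 0.68, and against primed_4d by 0.37 and -0.22, a gap of 0.59. Lefty2 against LIF_2i changed by -0.20 in R1 and 0.36 in IB10, so R1 minus IB10 was -0.57. Dppa5a against LIF_2i changed by 0.19 and -0.05, a gap of 0.24. Dazl and Rhox5 are among the genes whose counts sit in few wells, and the top 10% of wells held 45.7% (Dazl, R1) to 65.2% (Rhox5, IB10) of their counts in the rosette libraries.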

How the results depend on the processing

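The counts of calls and the named results both depended on the setting, and were scored by different rules, so they are not ranked. Of 754 values of named genes and pairs over 96 results, 688 kept direction and side of the threshold. Values that stayed under the threshold are among the 688. Of the rest, 59 lost the call, 6 gained one and 1 turned. Among the 59, 21 came from wells thinned to 6000 counts and 13 from a mean of 2 or more. The value that turned was Dazl against LIF_2i. It was 0.72 on the log2 scale without rosette_LIM replicate 2 and -1.20 without rosette_LIM replicate 1, against -0.14 with every library. Each such fit left 1 rosette library, so no p is given. Otx2 lost its call against LIF_2i after thinning, at 2.40.

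Variable genes in both lines numbered 327 after thinning to 6000 counts (97 of them among the 169), 256 with a mean of 0.5 and 105 with a mean of 2, and 441 to 465 with 1 line required. Pairs at 0.3 numbered 84 after thinning (82 of them among the 1007) and 5531 to 12079 in a single line, and opposite pairs 6 and 2064 to 5578. The top 20 share was 16.0% in R1 with wells weighted equally and 16.5% in IB10 over all wells.

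Against LIF_2i the higher and lower genes numbered 175 and 120 with no replicate block, 126 and 113 after thinning and 160 and 99 with DESeq2; 469 were lower with no low count filter. Leaving out 1 library gave 152 to 737 higher and 127 to 564 lower. Without LIF_2i replicate 1 these were 152 and 127, without LIF_2i replicate 2 they were 205 and 141, without primed_4d replicate 1 they were 737 and 564, and without primed_4d replicate 2 they were 731 and 562. Against primed_4d they numbered 989 and 861 after thinning and 1443 and 1160 with DESeq2, and 2042 and 1748 with no replicate block. The cause of these differences was not tested. Spread against primed_4d gave 9 genes with a mean of 0.5 and 0 to 14 when 1 library was left out, and 0 to 1 against LIF_2i.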
